A study of Rattus norvegicus with 12 samples.

Results

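The expression of genes for apoptosis, necroptosis and the inflammasome was followed in rat hearts after myocardial infarction (MI), with and without urolithin A (UA). The genes were chosen by symbol from a list of 35, and 34 of them were found among the 30560 genes of the count table. Bcl2 was not analysed here. All 34 had at least 10 counts over the 12 libraries and were tested. The rats were male Wistar rats, operated on at 7 weeks of age. In the MI group (4 rats) the left anterior descending coronary artery was permanently tied and vehicle, carboxymethylcellulose, was given. In the MI + UA group (4 rats) the same ligation was followed by daily oral gavage of UA, a metabolite that gut bacteria make from dietary ellagitannins, for 8 weeks. In the Sham group (4 rats) the chest was opened without ligation and vehicle was given. No group received UA without infarction. Each rat gave 1 library, made from 20 µm sections of a formalin-fixed, paraffin-embedded block of the middle heart, so all cell types of the tissue were read together and RNA from fixed tissue is fragmented. The label of rat 66 puts it in MI + UA, where it was counted, although other records of the study place it with the vehicle-treated MI rats.

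Caspases are proteases that cut other proteins during cell death. In apoptosis they are started either by death receptors at the cell surface or by cytochrome c that leaves mitochondria when pore-forming BCL2 proteins open the outer membrane. Necroptosis runs through the kinases RIPK1 and RIPK3 and the membrane-breaking protein MLKL when caspase-8 is not active, and the inflammasome, a complex of a sensor, an adaptor and caspase-1, matures interleukin-1β and interleukin-18 and cuts gasdermin D, which forms pores. All of these routes are known to take part in the loss of heart muscle and the inflammation that follow coronary occlusion.

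Reads on genes numbered from 6228706 to 19031695 per library, and 13 mitochondrially encoded genes held between 50.2% and 58.6% of them. The share of all counted reads that fell on genes ran from 46.9% to 48.3% in Sham, from 43.3% to 44.8% in MI and from 42.9% (rat 58) to 47.2% in MI + UA. Markers of the cells in the tissue moved between the groups. Of 11 cardiomyocyte markers, 10 fell in MI versus Sham (median log2 fold change, log2FC, of -0.45), and the mean log2 CPM (reads of a gene scaled to a common library size) of the list was 10.86 to 11.09 in the Sham rats, 10.39 to 10.51 in the MI rats and 10.35 to 10.66 in the MI + UA rats. Of 10 fibroblast markers, 8 rose (median 1.10), and of 12 macrophage markers, 9 rose (median 0.98). Of 7 smooth muscle and pericyte markers 3 rose, and of 7 endothelial markers 1 fell. None of the tested markers of neutrophils (4 of 7 tested), T and NK cells (7), B cells (4) and adipocytes (2 of 4 tested) passed the test, and S100a8, Mpo and Elane, defining neutrophil genes, had too few counts to be tested. Fewer cells of a type and less RNA per cell cannot be told apart in such libraries.

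In MI versus Sham, 2 of the 34 genes passed the test and were higher in MI, Nlrp3 and Tnfrsf1a, and 0 were lower. The test was edgeR's quasi-likelihood test with Benjamini-Hochberg adjustment over all 18182 genes tested, at an adjusted p under 0.05. Among all genes it called 5.82% higher and 5.53% lower, so the share of death genes called higher, 5.88%, was near that background. At an unadjusted p under 0.05 in either direction there were 10 of the 34 (29.4%), against 23.9% of all genes. The 4 MI rats lay above the 4 Sham rats without overlap at 7 of the 34 genes (20.6%), against 8.13% of all genes, and below them at 0 genes, against 7.55%. That background holds every gene with at least 10 counts in all, and the 34 genes were chosen with earlier results of these data known. The 7 genes without overlap were Nlrp3, Casp1, Tnfrsf1a, Cflar, Apaf1, Birc2 and Bik. They stand for an inflammasome sensor and its caspase, a death receptor and the brake on it, the apoptosome, an inhibitor of apoptosis and a BH3-only protein. By sign alone, 26 genes were higher and 8 lower in MI, and their median log2FC was 0.29, against 0.026 over all genes. The median was highest in the inflammasome genes and the BH3-only genes (0.50 in each). It was lowest in the caspases grouped here as initiator and executioner, Casp12 among them (0.065).

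**Figure D1:**
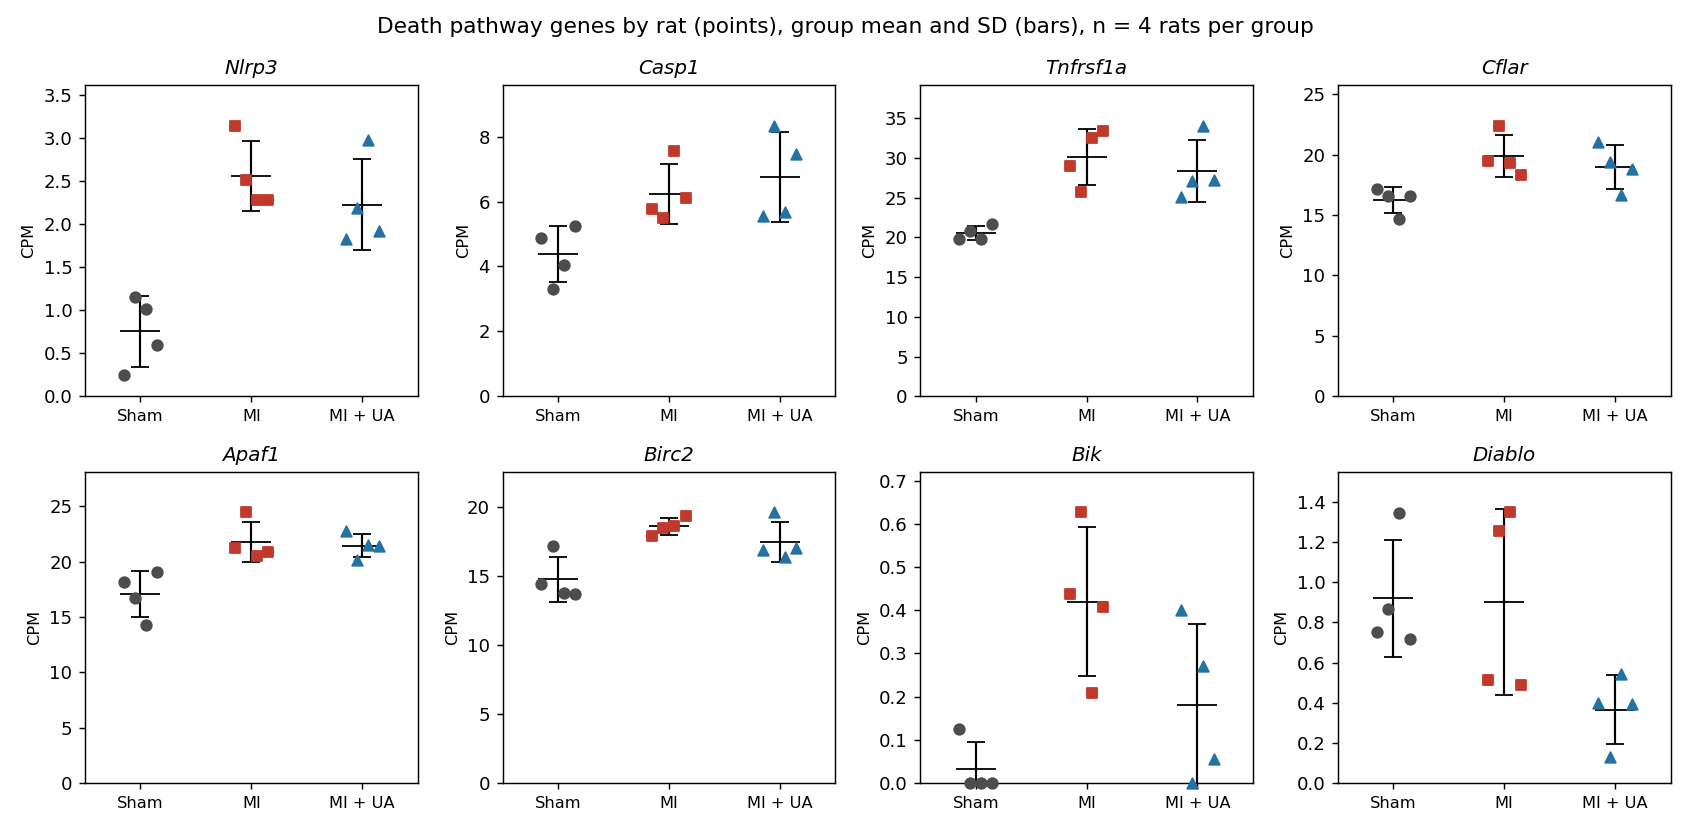
Levels in CPM (reads scaled to a common library size, linear axes from 0) of the 7 genes whose MI and Sham rats did not overlap and of Diablo, with 1 point per rat and the group mean and SD of 4 rats as bars. The 4 MI rats lie above the 4 Sham rats in each panel but that of Diablo, and the MI + UA rats overlap the MI rats in each panel.

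Nlrp3 (ENSRNOG00000003170), the sensor of the inflammasome, rose the most of the genes that passed the test. It was at 0.251, 1.16, 1.01 and 0.596 CPM in the Sham rats, at 3.14, 2.51, 2.28 and 2.28 CPM in the MI rats and at 1.83, 2.18, 2.98 and 1.91 CPM in the MI + UA rats. Every infarcted rat, with UA or without, lay above every Sham rat. The level was low, with 2 to 8 counts per Sham library and 16 to 43 per MI library. In MI the log2FC was 1.81 (standard error, SE, 0.37, edgeR adjusted p = 0.00237), or 3.49-fold, with a 95% interval of 1.04 to 2.57 on the log2 scale. Against Sham, the MI + UA rats had a log2FC of 1.56 (SE 0.37, edgeR adjusted p = 0.00951). Between MI + UA and MI it was -0.25 (SE 0.29), with a 95% interval from -0.85 to 0.36. The gene passed the test in all 8 fits that each left out 1 of the MI or Sham rats, with log2FCs from 1.5 to 2.10.

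The region upstream of Nlrp3 is shown because Nlrp3 had the largest log2FC of the genes among the 34 that passed the test. It is given 5′ to 3′ on the strand of the gene as the 250 bases before the start of the gene in RefSeq, chr10:44827848-44828097 on the + strand of the build GRCr8, which is later than the build used for the counts (mRatBN7.2). Capitals mark a match to GAGGAA, the core of the purine box that the myeloid factor PU.1 binds, 73 to 68 bases before the start.
Nlrp3: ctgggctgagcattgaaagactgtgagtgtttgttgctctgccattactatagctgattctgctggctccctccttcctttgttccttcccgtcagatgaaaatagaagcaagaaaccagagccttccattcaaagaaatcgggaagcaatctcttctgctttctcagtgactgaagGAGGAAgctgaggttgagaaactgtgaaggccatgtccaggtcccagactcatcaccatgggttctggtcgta
This hexamer, searched on both strands, was found upstream of 10 of the 26 death genes with a RefSeq promoter entry and of 23.3% of 33469 rat promoters of the same length.

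The partners of Nlrp3 were all higher in MI than in Sham by sign, and none passed the test. Casp1 (ENSRNOG00000007372), the caspase that matures interleukin-1β, was at 4.89, 3.32, 4.04 and 5.25 CPM in the Sham rats and at 5.78, 5.49, 7.58 and 6.11 CPM in the MI rats. The groups did not overlap, by a narrow gap. MI differed from Sham by a log2FC of 0.50 (SE 0.20, edgeR adjusted p = 0.121). In MI + UA it was at 5.54, 8.35, 5.68 and 7.48 CPM, again above every Sham rat, with a log2FC of 0.61 against Sham (SE 0.20, edgeR adjusted p = 0.0561). Over the 8 fits that each left out 1 rat of these groups, the edgeR adjusted p of Casp1 ran from 0.0374 (without MI + UA rat 29) to 0.163 (without Sham rat 17), and 1 fit passed the test. Gsdmd, the gene of gasdermin D, had a log2FC of 0.60 in MI versus Sham (SE 0.25, edgeR adjusted p = 0.137). Leaving out each Sham or MI rat in turn gave a log2FC for Gsdmd from 0.42 (edgeR adjusted p = 0.327, without Sham rat 32) to 0.85 (edgeR adjusted p = 0.0419, without Sham rat 12), and it passed the test in 1 of these 8 fits. Pycard, the adaptor that joins the sensor to caspase-1, had a log2FC of 0.42 (edgeR adjusted p = 0.269) and Casp4, the caspase that senses bacterial lipopolysaccharide inside cells, of 0.091 (edgeR adjusted p = 0.909). Between MI + UA and MI, the log2FCs of these 4 genes ran from -0.23 (Pycard) to 0.11 (Casp4 and Casp1), and none of them had an unadjusted p under 0.05.

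Macrophages are a known source of Nlrp3, and their markers were also higher in the infarcted rats than in Sham. The mean log2 CPM of 12 macrophage markers ran from 2.76 to 3.04 in Sham, from 3.65 to 4.01 in MI and from 3.42 to 4.09 in MI + UA, and none of the 12 was at 0 in any rat. Their summed level was 134 to 169 CPM in Sham, 270 to 427 CPM in MI and 227 to 458 CPM in MI + UA. Within MI, rat 36 had the highest Nlrp3 (log2 CPM 1.70) and the lowest mean of the macrophage markers (3.65). Rat 61 had the highest mean of these markers in MI (4.01), with Nlrp3 at 1.25. Within MI + UA, rat 64 was highest in both (1.62 and 4.09). Neutrophil markers were low, with 2 to 5 of the 7 at 0 in each rat. Their summed level was 1.44 to 2.76 CPM in Sham, 2.34 to 3.92 CPM in MI and 2.25 to 3.08 CPM in MI + UA. Their mean log2 CPM ran from -2.496 to -2.179 in Sham, from -2.10 to -1.91 in MI, above Sham without overlap, and from -2.19 to -1.74 in MI + UA. Of the 7, 4 had enough counts to be tested, and all 4 were higher than in Sham by sign in MI and in MI + UA, while 0 passed the edgeR test and 0 had an unadjusted p under 0.05. The log2 CPM of Nlrp3 minus the macrophage mean was -3.25 ± 0.85 over the Sham rats and -2.44 ± 0.38 over the MI rats (mean ± SD, n = 4), with overlap between the groups (-4.29 to -2.44 and -2.76 to -1.95). For Casp1 the same difference was -0.71 ± 0.23 over the Sham rats and -1.19 ± 0.13 over the MI rats (mean ± SD, n = 4), so that Casp1 was lower relative to the macrophage markers in MI, without overlap. Over the MI + UA rats this difference of Casp1 was -1.02 ± 0.45 (mean ± SD, n = 4, range -1.55 to -0.494), which overlapped both other groups. The part of macrophage or neutrophil number in these results was not tested.

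**Figure D2:**
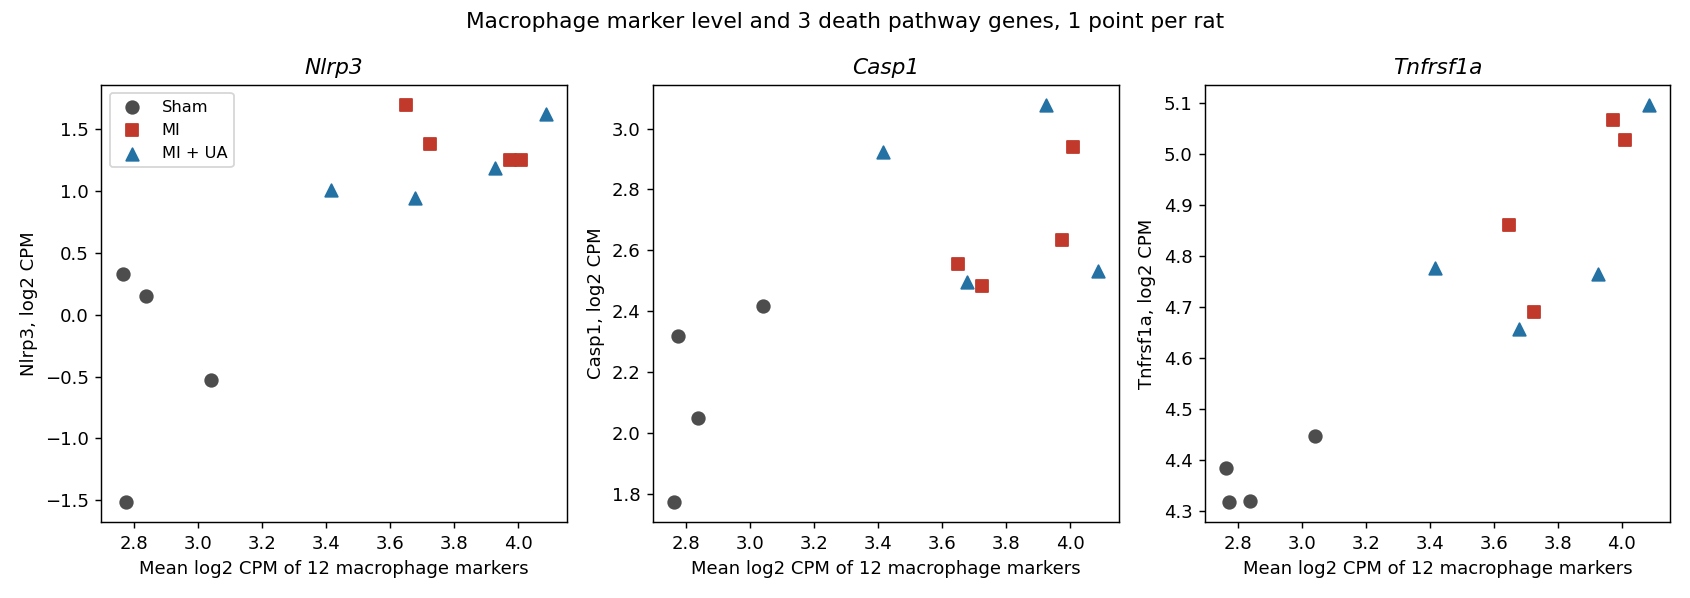
Log2 CPM of Nlrp3, Casp1 and Tnfrsf1a (vertical axes) against the mean log2 CPM of 12 macrophage markers (horizontal axes), with 1 point per rat. The Sham rats (2.76 to 3.04 on the horizontal axis) lie apart from the infarcted rats (3.42 to 4.09), and MI and MI + UA rats are mixed.

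Of the 5 death receptor, ligand and adaptor genes among the 34, Tnfrsf1a (ENSRNOG00000031312), which encodes the main receptor for tumour necrosis factor, was the gene that passed the test. It was at 19.8, 20.8, 19.9 and 21.7 CPM in the Sham rats, at 28.95, 25.7, 32.5 and 33.4 CPM in the MI rats and at 25.1, 27.1, 34.1 and 27.3 CPM in the MI + UA rats. The Sham rats lay close together and every infarcted rat was above them. The log2FC was 0.56 in MI versus Sham (SE 0.11, edgeR adjusted p = 0.00229), or 1.47-fold, 0.46 in MI + UA versus Sham (SE 0.11, edgeR adjusted p = 0.0119) and -0.10 in MI + UA versus MI (SE 0.11, 95% interval -0.32 to 0.12). The receptor passed the test in all 8 fits that each left out 1 rat in both comparisons with Sham. Its log2 CPM minus the mean of the fibroblast markers was -1.05 ± 0.14 over the Sham rats and -1.64 ± 0.11 over the MI rats, and minus the mean of the macrophage markers 1.51 ± 0.091 and 1.07 ± 0.11 (each mean ± SD, n = 4), lower in MI without overlap in both cases. The part of either cell type in its rise was not tested.

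Upstream of Tnfrsf1a, shown as the other of the 34 genes that passed the test, the 250 bases before its start (RefSeq, chr4:159836869-159837118, + strand, GRCr8) held none of the 5 motifs searched on both strands, which were the GC box (GGGCGG), the PU.1 core given above, the AP-1 site (TGANTCA), the TATA box (TATAAA) and the CCAAT box, and are printed without capitals.
Tnfrsf1a: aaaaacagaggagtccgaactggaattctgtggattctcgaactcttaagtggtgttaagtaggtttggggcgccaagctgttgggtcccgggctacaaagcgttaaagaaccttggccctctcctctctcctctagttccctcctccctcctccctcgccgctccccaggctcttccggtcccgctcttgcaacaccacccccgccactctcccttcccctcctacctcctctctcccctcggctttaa

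For the ligand the data were thin. Tnf, the cytokine that binds this receptor, was at 1.37 ± 0.699 CPM over the Sham rats, 0.893 ± 0.612 over the MI rats and 1.12 ± 0.505 over the MI + UA rats (each mean ± SD, n = 4). The log2FC of MI versus Sham was -0.53 (SE 0.49, edgeR adjusted p = 0.569), with a 95% interval from -1.54 to 0.48, so these counts give neither its direction nor its size. Cflar (ENSRNOG00000012473), the gene of c-FLIP, which holds caspase-8 in check at the receptor, was at 17.2, 16.6, 14.6 and 16.6 CPM in the Sham rats and at 19.5, 22.4, 19.3 and 18.3 CPM in the MI rats, without overlap. Its log2FC of 0.28 (SE 0.11) missed the threshold (edgeR adjusted p = 0.114), and the MI + UA rats, at 16.6 to 21.0 CPM, overlapped both other groups. Fadd, the adaptor that recruits caspase-8, had a log2FC of 0.30 (edgeR adjusted p = 0.297), and Fas, a receptor that carries a death domain, of -0.25 (edgeR adjusted p = 0.724). The log2 ratio of Casp8 to Cflar in each rat, of which only the change between groups can be read, was -2.10 ± 0.17 over the Sham rats, -2.33 ± 0.25 over the MI rats and -2.26 ± 0.38 over the MI + UA rats (each mean ± SD, n = 4), and the groups overlapped.

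Of Casp2, Casp6, Casp8, Casp9 and Casp12, grouped here as initiator and executioner caspases, none passed the test in any of the 3 comparisons. Casp9, the caspase that the apoptosome activates, had a log2FC of 0.045 (SE 0.22) in MI versus Sham and of 0.0020 (SE 0.21) in MI + UA versus MI, and Casp8, the caspase of death receptors, of 0.065 (SE 0.24) and 0.092 (SE 0.23). Casp6, which cuts lamins, had log2FCs of 0.18 and 0.16. Casp2 had 27 counts over all libraries, and the ratio of its pooled counts in MI to Sham was 0.995, with a 95% counting interval of 0.342 to 3.08. Casp12, linked to stress of the endoplasmic reticulum, was the exception in size. It was at 24.3, 14.6, 19.5 and 18.4 CPM in the Sham rats, at 28.2, 25.1, 31.1 and 23.5 CPM in the MI rats and at 21.4, 39.4, 24.0 and 20.2 CPM in the MI + UA rats. In MI its log2FC was 0.49 (SE 0.18, edgeR adjusted p = 0.0951), and the groups overlapped through Sham rat 12. It passed the test without that rat (edgeR adjusted p = 0.0493), without MI + UA rat 58, which holds the value of 39.4 CPM (edgeR adjusted p = 0.0197), with only the 2 groups in the fit (edgeR adjusted p = 0.0306) and without the filter on low counts (edgeR adjusted p = 0.0304). It did not pass under the other alternatives. Over the 8 fits that each left out a Sham or MI rat, the log2FC of Casp12 ran from 0.38 (edgeR adjusted p = 0.255, without Sham rat 17) to 0.63 (without Sham rat 12). For MI + UA against Sham the log2FC of Casp12 was 0.42 with rat 58 and 0.17 without it. In the order of RefSeq genes, Casp1, Casp4 and Casp12 follow each other, as do Birc2 and Birc3, and Cflar and Casp8. Reads that fit several related genes could be lost or split between them, which was not tested.

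**Figure D3:**
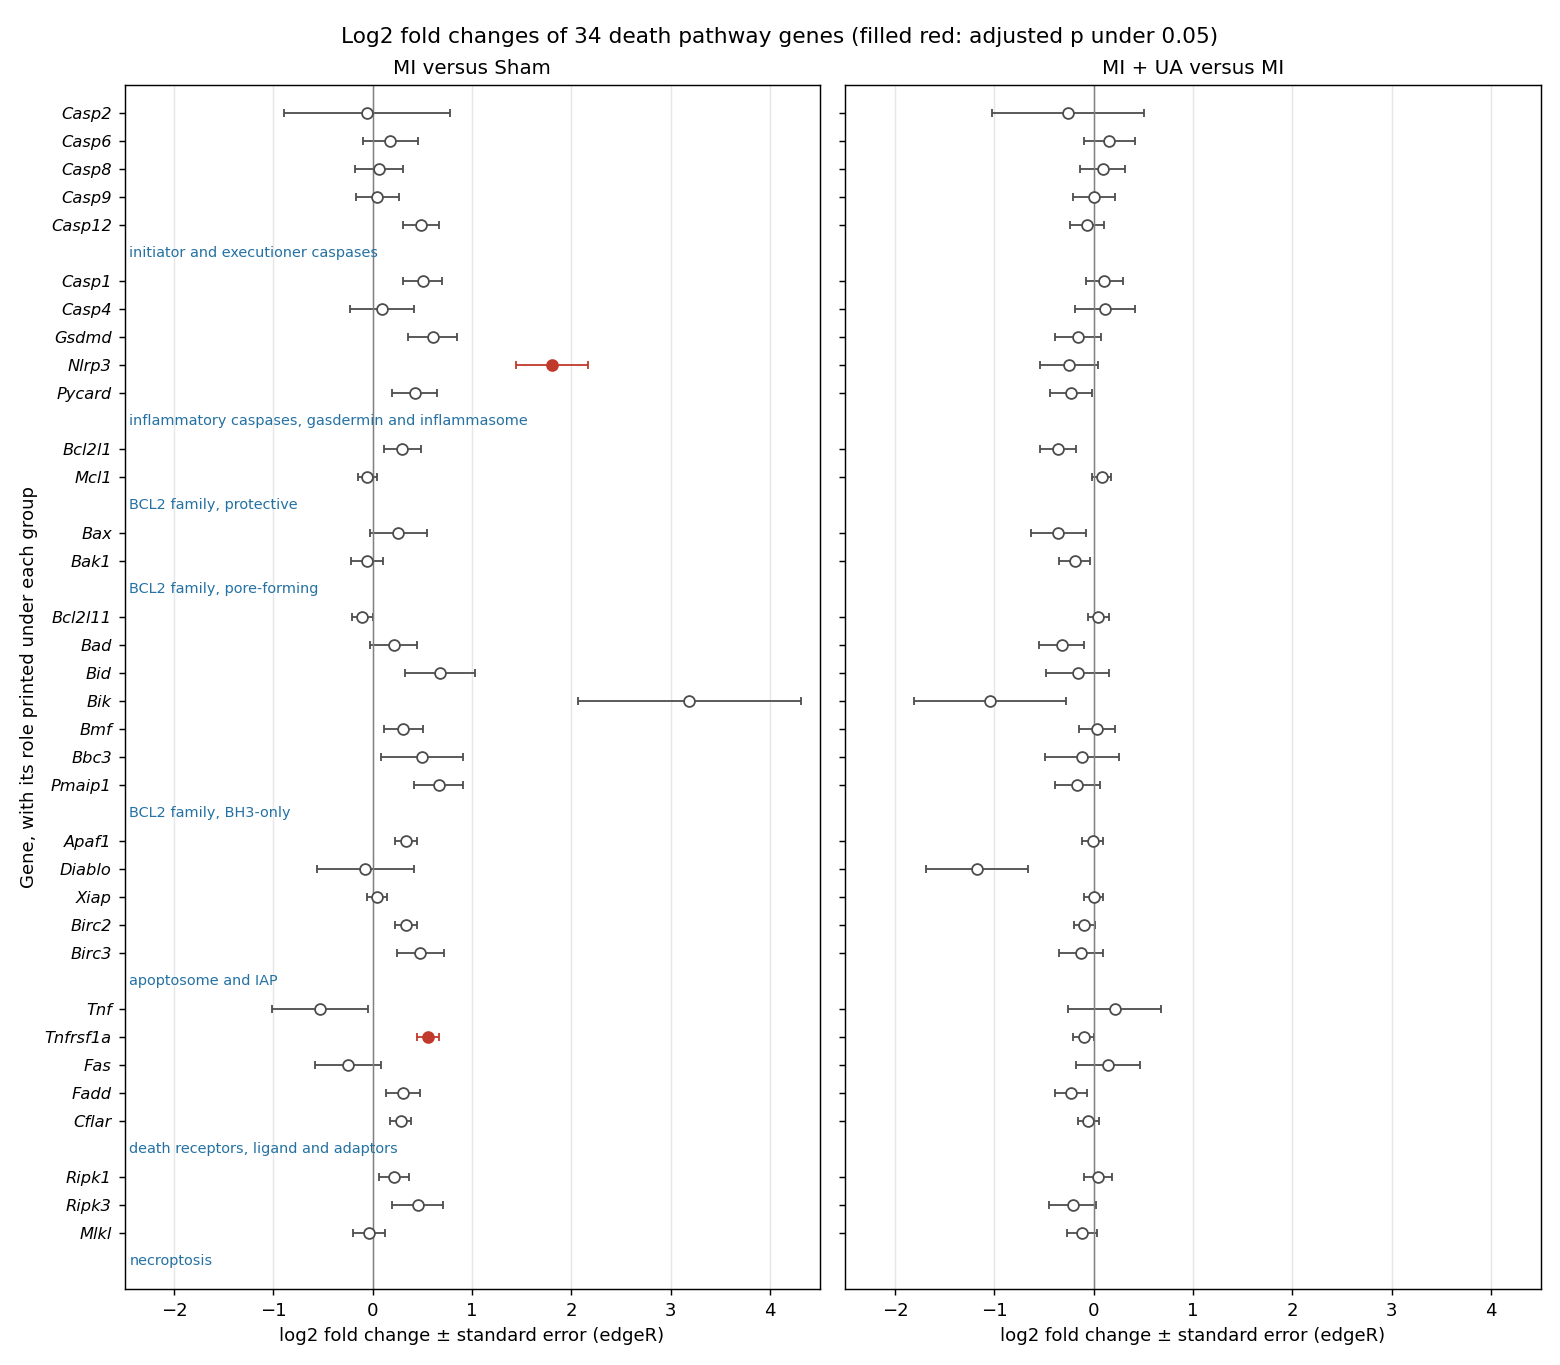
Log2 fold changes (horizontal axes) of the 34 genes in MI versus Sham (left) and MI + UA versus MI (right), grouped by role, with bars for 1 standard error of edgeR's estimate. Nlrp3 and Tnfrsf1a, in red on the left, have an adjusted p under 0.05, and no gene on the right does. The estimates of Bik rest on 28 counts.

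Around the mitochondrion, Apaf1 (ENSRNOG00000008022), the scaffold that binds cytochrome c and forms the apoptosome, came closest to the threshold. It was at 18.2, 16.7, 14.3 and 19.1 CPM in the Sham rats, at 21.2, 24.5, 20.6 and 20.9 CPM in the MI rats and at 22.7, 20.2, 21.5 and 21.4 CPM in the MI + UA rats, so that all infarcted rats lay above all Sham rats. The log2FC was 0.34 in MI versus Sham (SE 0.11, edgeR adjusted p = 0.05005, not under the threshold), 0.32 in MI + UA versus Sham (SE 0.11, edgeR adjusted p = 0.0638) and -0.011 in MI + UA versus MI (SE 0.10, 95% interval -0.23 to 0.20). In MI versus Sham the adjusted p was 0.0448 without Sham rat 38, 0.0489 without MI + UA rat 29, 0.0441 with rat 66 counted in MI and 0.159 without Sham rat 32. Relative to the macrophage markers Apaf1 was lower in MI than in Sham (log2 difference 0.61 ± 0.26 and 1.24 ± 0.17, mean ± SD, n = 4), and the part of cell composition was not tested.

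The region before Apaf1, shown as the apoptosome gene next to the threshold, spans chr7:27466773-27467022 on the - strand (RefSeq, GRCr8) and is printed 5′ to 3′ along the gene. Capitals mark 2 matches to GGGCGG, the GC box that Sp1 binds, 182 to 177 and 78 to 73 bases before the start.
Apaf1: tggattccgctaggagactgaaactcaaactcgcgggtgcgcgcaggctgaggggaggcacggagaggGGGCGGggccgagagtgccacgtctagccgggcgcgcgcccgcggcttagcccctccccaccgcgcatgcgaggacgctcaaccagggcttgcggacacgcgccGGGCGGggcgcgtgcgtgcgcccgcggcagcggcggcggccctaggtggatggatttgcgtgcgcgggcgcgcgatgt
A GC box was found upstream of 17 of the 26 death genes with an entry (65.4%) and of 30.5% of all rat promoters of that length. Of the 3 regions shown, it was in that of Apaf1. The AP-1 motif was upstream of 4 of the 26 (15.4%, all promoters 6.34%), the TATA box of 2 (7.69%, all promoters 12.9%) and the CCAAT box of 8 (30.8%, all promoters 34%). For these motifs and the PU.1 core, death genes were counted by symbol. All promoters were counted by entry, without a filter on gene type, so the shares are of unlike sets.

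The inhibitors of apoptosis bind caspases or mark signalling proteins with ubiquitin. Birc2 (ENSRNOG00000010602), which encodes cIAP1, was at 14.4, 17.2, 13.8 and 13.7 CPM in the Sham rats and at 17.9, 18.5, 18.7 and 19.4 CPM in the MI rats. The MI rats lay within a narrow range above all Sham rats. Its log2FC of 0.33 (SE 0.11) had an edgeR adjusted p of 0.0539, which became 0.0277 without Sham rat 17 and 0.0471 without MI + UA rat 58. With the other Sham or MI rats left out in turn Birc2 did not pass the test, and its edgeR adjusted p reached 0.149 without Sham rat 38. In MI + UA it was at 16.4 to 19.7 CPM, which overlapped the Sham rats, and its log2FC against MI was -0.094 (SE 0.10). Birc3, which encodes cIAP2, had a log2FC of 0.48 in MI versus Sham (SE 0.24, edgeR adjusted p = 0.224). Xiap, the direct inhibitor of caspases, stood close to level, with log2FCs of 0.042 (SE 0.099, 95% interval -0.16 to 0.25) in MI versus Sham and -0.00027 (SE 0.096, 95% interval -0.20 to 0.20) in MI + UA versus MI.

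The BCL2 family decides whether the outer mitochondrial membrane opens, and none of the 11 of its genes among the 34 passed the test in MI versus Sham. Of the BH3-only genes, which set the others in motion, 6 of 7 had the higher mean in MI. Pmaip1 (Noxa) had a log2FC of 0.67 (SE 0.25, edgeR adjusted p = 0.0913) and passed the test in 1 of the 8 fits that each left out 1 rat. Those fits gave Pmaip1 a log2FC from 0.48 (edgeR adjusted p = 0.239, without MI rat 57) to 0.83 (edgeR adjusted p = 0.0320, without MI rat 36). Bid, which links caspase-8 to mitochondria, had 0.68 (SE 0.35, edgeR adjusted p = 0.254), Bbc3 (Puma) 0.50 (SE 0.42), Bmf 0.31 and Bad 0.21 as log2FC in the same comparison. Bcl2l11 (Bim) had -0.10 (SE 0.11). Bik (ENSRNOG00000010359) was at the limit of detection, with 28 counts in all. It had 1 count in the Sham rats together, in rat 12, 2 to 6 counts in each MI rat and 0 to 7 in each MI + UA rat. The ratio of pooled levels was 11.8 for MI to Sham, with a 95% counting interval of 1.86 to 495, and edgeR's adjusted p was 0.0737.

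Of the genes that protect or open the membrane, Mcl1, a protective member, was at 140.6 ± 10.6 CPM in the Sham rats and 135.5 ± 20.7 CPM in the MI rats (mean ± SD, n = 4), with a log2FC of -0.055 (95% interval -0.26 to 0.15). Bcl2l1, the gene of BCL-XL, was at 49.9 to 69.9 CPM in the Sham rats and at 50.1, 115.9, 71.8 and 77.6 CPM in the MI rats, where rat 57 was the highest. Its log2FC was 0.30 in MI versus Sham (SE 0.18, edgeR adjusted p = 0.355) and -0.36 in MI + UA versus MI (SE 0.18). Bax and Bak1, which form the pores, had log2FCs of 0.26 (SE 0.29) and -0.055 (SE 0.16) in MI versus Sham. The log2 ratio of Bax to Bcl2l1 in each rat, of which only the change between groups can be read, was -4.79 ± 0.34 over the Sham rats, -4.84 ± 0.78 over the MI rats and -4.81 ± 0.51 over the MI + UA rats (each mean ± SD, n = 4). These means differed by less than the spread between rats of 1 group.

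Of Ripk1, Ripk3 and Mlkl, the necroptosis genes among the 34, none passed the test in any of the 3 comparisons. Ripk1, the kinase that couples death receptors to either survival or death, had a log2FC of 0.22 in MI versus Sham (SE 0.15, edgeR adjusted p = 0.418). Ripk3, the kinase that activates MLKL, was at 2.26, 3.61, 4.55 and 2.62 CPM in the Sham rats and at 5.26, 4.08, 3.53 and 4.48 CPM in the MI rats, with overlap between the groups and a log2FC of 0.45 (SE 0.26, edgeR adjusted p = 0.307). Mlkl had -0.035 (SE 0.16), with a 95% interval from -0.37 to 0.30. In MI + UA versus MI the log2FCs were 0.043, -0.21 and -0.12 for the 3 genes in the same order.

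The comparison of MI + UA with MI asks whether UA changed these genes in infarcted hearts. With edgeR, 0 of the 34 genes passed the test in either direction, and neither did any other gene, so that the background was 0%. DESeq2 called 0 genes as well. At an unadjusted p under 0.05 edgeR had 689 genes (3.79% of those tested) and DESeq2 481, and 1 death gene, Diablo (2.94%), was among edgeR's. The MI + UA rats lay above all MI rats at 1.18% and below them at 1.16% of all genes, and at 0 of the 34. By sign 11 of the 34 were higher and 23 lower in MI + UA, and the median log2FC was -0.11, against 0.0047 over all genes. That median was -0.031 when rat 66 was counted in MI, and 7 genes were higher when MI + UA rat 64 was left out. The 5 genes of the apoptosome and the inhibitors of apoptosis and the 2 pore-forming genes were all lower by sign, though the signs of Apaf1 and Xiap changed under at least 1 alternative, and the other groups were split. The intervals give the precision of these values. For Xiap and Apaf1 the 95% intervals ran from -0.20 to 0.20 and from -0.23 to 0.20, and for Bik the interval ran from -2.64 to 0.55.

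Diablo (ENSRNOG00000029197), the gene of Smac, a mitochondrial protein that frees caspases from their inhibitors, was at 0.753, 0.866, 1.35 and 0.715 CPM in the Sham rats, at 0.512, 1.25, 1.35 and 0.489 CPM in the MI rats and at 0.400, 0.128, 0.541 and 0.394 CPM in the MI + UA rats. The MI + UA rats lay below all Sham rats and overlapped the lower 2 MI rats. The log2FC against MI was -1.17 (SE 0.51, edgeR adjusted p = 1.00). It rests on 79 counts in all, 34 in the MI rats and 19 in the MI + UA rats, whose ratio of pooled levels was 0.465 with a 95% counting interval of 0.25 to 0.838. Against Sham the log2FC was -1.25 (SE 0.53, edgeR adjusted p = 0.161), and the log2FC of MI against Sham was -0.076 (SE 0.49).

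Against Sham, the MI + UA hearts again had 2 of the 34 genes higher, Nlrp3 and Tnfrsf1a (5.88%, against 5.16% of all genes), and 0 lower (4.27% of all genes). The median log2FC of the 34 was 0.22, against 0.023 over all genes. This comparison shares its Sham rats with MI versus Sham and its MI + UA rats with MI + UA versus MI, so its agreement with either is no separate evidence.

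Beyond the 34 genes, 89 other genes of the same pathways were tested from 7 lists. In MI versus Sham 4 rose and 5 fell, with a median log2FC of 0.061 and 49 higher by sign. Over all genes tested 5.82% were called higher and 5.53% lower, so 4 and 5 of 89 are near that background. In the inflammasome list (21 genes) 2 rose and 0 fell. Il1r1, the receptor for interleukin-1, was at 45.2, 43.2, 39.2 and 35.4 CPM in the Sham rats and at 59.0, 73.7, 77.0 and 66.9 CPM in the MI rats, without overlap, a log2FC of 0.76 (SE 0.11, edgeR adjusted p = 0.000112). Nlrc4, another inflammasome sensor, was at 0.673 to 0.866 CPM in Sham and at 1.32, 2.98, 3.53 and 2.20 CPM in MI (log2FC 1.68, SE 0.36, edgeR adjusted p = 0.00356). Both passed the test whichever MI or Sham rat was left out. The cytokines themselves, named after their values were seen, did not pass it. Il1b had 0 to 3 counts per Sham library and 1 to 12 per MI library (log2FC 1.12, SE 0.73), and Il18 had a log2FC of 0.68 (SE 0.30, edgeR adjusted p = 0.163).

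In the list of executioner and mitochondrial effectors (13 genes) 0 rose and 3 fell. Cycs, the gene of cytochrome c, was at 177, 165, 209 and 187 CPM in the Sham rats and at 137, 151, 115 and 121 CPM in the MI rats, without overlap (log2FC -0.50, SE 0.10, edgeR adjusted p = 0.00294). Vdac1, a channel of the outer mitochondrial membrane, fell by 0.39 on the log2 scale (SE 0.080, edgeR adjusted p = 0.00275). Vdac2, a related channel that holds BAK, fell by 0.30 (edgeR adjusted p = 0.0396), with overlap between the groups. Vdac2 passed the test in 3 of the 8 fits that each left out 1 rat. The cardiomyocyte markers fell over the same rats, by a median log2FC of -0.45, and their part in these falls was not tested.

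**Figure D4:**
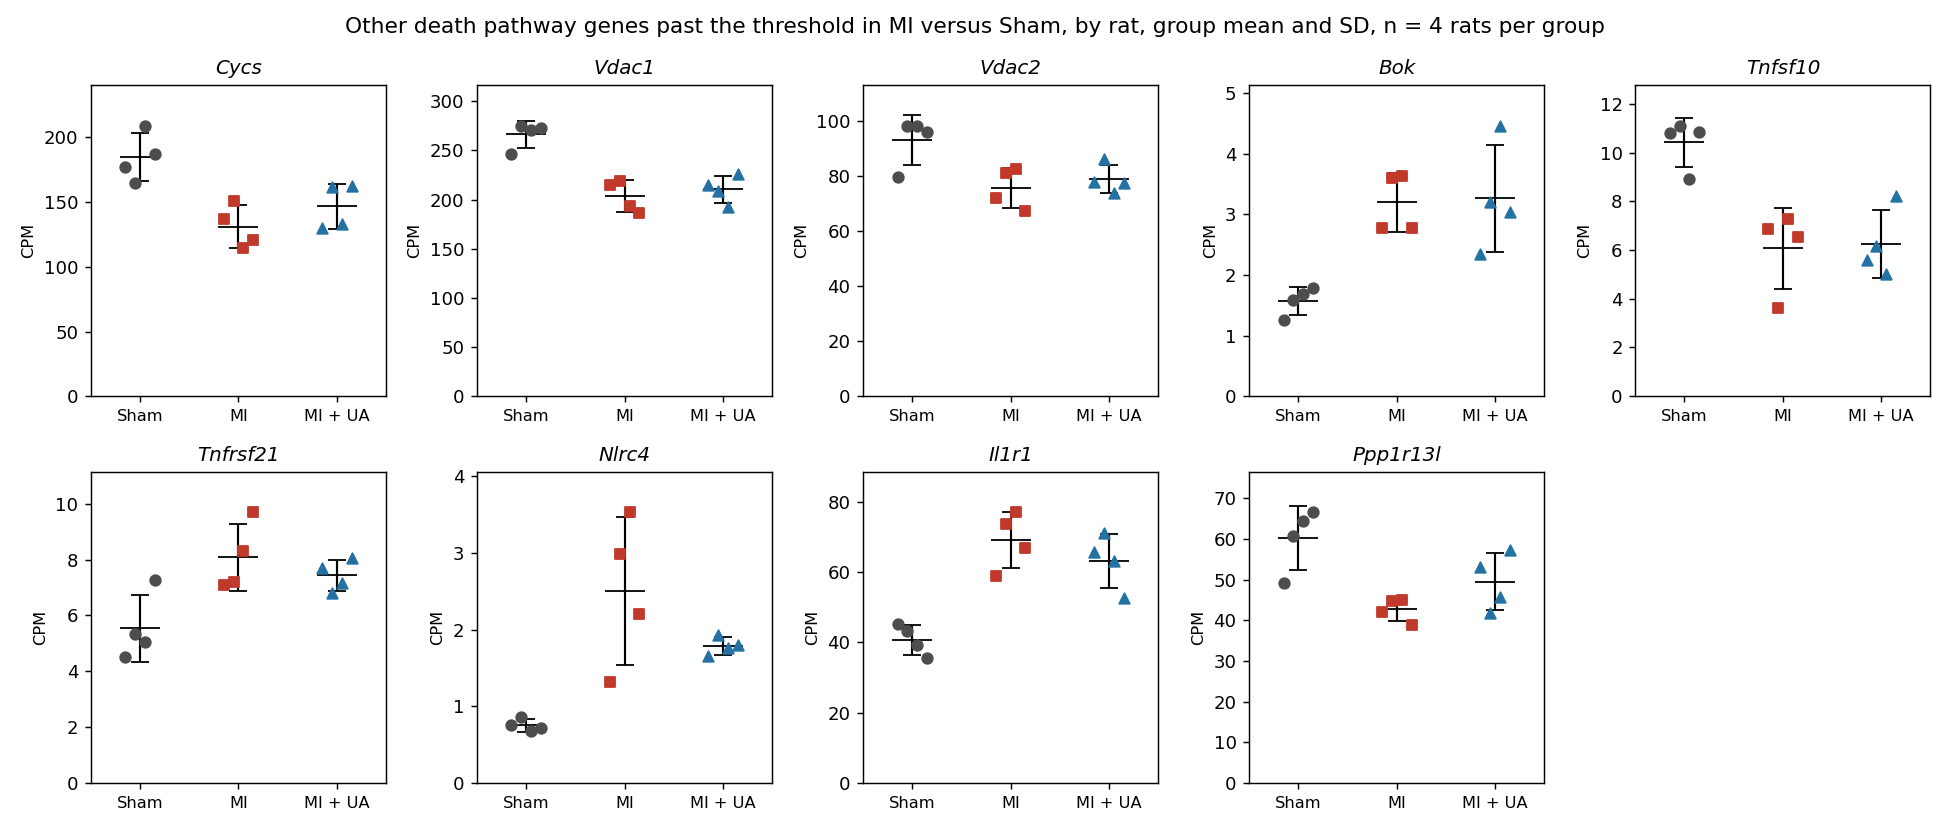
Levels in CPM (linear axes from 0) of the 9 other pathway genes that passed the test in MI versus Sham, with 1 point per rat and the group mean and SD of 4 rats as bars. Cycs, Vdac1, Vdac2, Tnfsf10 and Ppp1r13l are lower and Bok, Tnfrsf21, Nlrc4 and Il1r1 higher in MI, and MI and MI + UA rats overlap in each panel.

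In the list of other BCL2 family genes (10) Bok, a pore-forming relative of BAX, rose from 1.25, 1.59, 1.68 and 1.79 CPM in the Sham rats to 2.78, 3.61, 3.63 and 2.77 CPM in the MI rats, without overlap. Its log2FC of 1.00 (SE 0.27) had an edgeR adjusted p of 0.0198, which became 0.0615 without Sham rat 12 and 0.0609 without MI rat 61. Among other death receptors and ligands (13) 1 rose and 1 fell. Tnfsf10, the gene of the death ligand TRAIL, went from 10.8, 11.1, 8.92 and 10.9 CPM to 6.87, 3.61, 7.27 and 6.52 CPM (log2FC -0.75, SE 0.19, edgeR adjusted p = 0.0135). Tnfrsf21, death receptor 6, had a log2FC of 0.54 (edgeR adjusted p = 0.0491) with overlapping groups, and passed the test in 3 of the 8 fits that each left out 1 rat. The call of Tnfrsf21 was also lost with DESeq2 (adjusted p = 0.0510), with the size factors of DESeq2 in edgeR (0.0502), with TMM on nuclear genes (0.0534), without the filter on low counts (0.0558) and with only the 2 groups in the fit (0.0733). In the list of p53 and its death targets (14 genes), Ppp1r13l fell by 0.50 on the log2 scale (SE 0.11, edgeR adjusted p = 0.00467). In the lists of other inhibitors of apoptosis (4 genes) and of other necroptosis genes (14 genes) 0 passed the test in MI versus Sham. In MI + UA versus MI 0 of the 89 genes passed the test and 3 had an unadjusted p under 0.05, against 3.79% of all genes, and the log2FCs of the 9 genes ran from -0.45 (Nlrc4) to 0.22 (Ppp1r13l). In MI + UA versus Sham 4 of the 89 rose and 4 fell, against 5.16% of all genes called higher and 4.27% lower. Of these 8, Rbck1 and Il1rn had not passed the test in MI versus Sham and are named after their values were seen. Rbck1 of the necroptosis list, a subunit of a ubiquitin ligase, had a log2FC of -0.38 (SE 0.10, edgeR adjusted p = 0.0193). Il1rn, the gene of the interleukin-1 receptor antagonist, had a log2FC of 3.12 (SE 0.96, edgeR adjusted p = 0.0447) with overlapping groups, and passed the test in 2 of the 8 fits that each left out 1 rat, with a log2FC of 2.10 (edgeR adjusted p = 0.195) without MI + UA rat 64. Rbck1 passed the test in 5 of the 8 fits that each left out 1 rat, not without Sham rat 32 or MI + UA rat 58 or 64. In MI + UA versus Sham Nlrc4 passed in 0 of these 8 fits, with edgeR adjusted p from 0.0580 to 0.0974. Cycs passed in 3, Tnfsf10 in 4, Bok in 6, and Vdac1 and Il1r1 in all 8. In that comparison between 2 and 9 of the 89 passed the test when 1 rat was left out (2 without MI + UA rat 64, 4 without Sham rat 32, and 5 without Sham rat 38 or MI + UA rat 29 or 58), and between 8 and 12 under the other alternatives (12 with DESeq2).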

How the data were processed

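RNA was measured in 12 rat hearts, 4 each of Sham, MI and MI + UA, after depletion of ribosomal RNA. The authors mapped paired-end, strand-specific reads with STAR 2.6.1c to the rat genome mRatBN7.2 with the annotation of Ensembl release 108, and deposited raw read counts per gene from htseq-count, without normalization. The version and strand setting of htseq-count are not given in the sources used here, so reads of overlapping antisense genes may not be separable. The sample labels call the molecule polyA RNA. The study names 1 more MI + UA library, which its authors set aside and which was not used here.

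The 5 summary lines of htseq-count were left out and genes under 10 counts over all libraries were dropped, which left 18182 of 30560. Library sizes were scaled by TMM, and the 3 groups were compared in 1 fit by quasi-likelihood in edgeR 4.0.16 (R 4.3.3), with Benjamini-Hochberg adjustment over all genes and a threshold of 0.05. Standard errors were derived from the fold change and its F statistic, and 95% intervals from these with the t distribution of the test. Log2 CPM used a prior count of 1. Counting intervals of pooled counts are exact, assume Poisson sampling and cover counting error only. Levels of different genes were not compared, since no gene lengths of this build were used. Promoters and motifs were read with Python 3.11.15 from RefSeq tables of GRCr8, matched by symbol (26 of 34 genes). The edgeR steps were tested on simulated data.

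Groups follow the sample labels. Each rat gave 1 library and no sequencing batch is given. The 35 genes and the lists of other pathway genes and cell type markers were chosen with earlier results of these data known. All 34 measured genes are named. Of the other pathway genes, up to 3 per list and direction with the largest changes past the threshold in MI versus Sham and an average log2 CPM of at least 0 are named, beside a few stated in the text. Alternatives were DESeq2 1.42.0, edgeR with the size factors of DESeq2, TMM computed on nuclear genes, other filters, fits of 2 groups, rat 66 counted in MI, and each rat left out in turn. Depth, from 6228706 to 19031695 reads on genes, limits the genes with few counts, such as Bik, Casp2 and Diablo. Some results of the other pathway lists are not reported here.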

Additional observations from a re-analysis of the deposited data

Results flagged for a closer look

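Within each group of 4 rats, the highest and lowest level of every gene was set against Dixon's critical gap, a share of the group's range (95% level). Of 102 groups examined, 6 held a rat past it. In 1 of these, Bik in Sham, 3 rats had 0 counts and the gap fills the range whatever the other rat holds, so that it carries no information. Without that group, 5 of 101 held a rat past it, where chance gives about 1 in 20, or 5.05. Gsdmd was low in MI rat 57, at 3.14 CPM against 4.61 to 4.67 CPM in the other MI rats (gap 0.958 of the range). Apaf1 was high in the same rat, at 24.5 CPM against 20.6 to 21.2 CPM (0.834). Casp6 was high in MI rat 61, at 2.80 CPM against 2.04 to 2.12 CPM (0.895). Among the Sham rats, Casp4 was high in rat 12, at 6.15 CPM against 3.10 to 3.61 CPM (0.833), and Bax in rat 32, at 3.37 CPM against 1.73 to 2.01 CPM (0.832). Bik had 1 count in Sham rat 12 and 0 in the other Sham rats (gap 1 of the range by construction). No explanation of these values was tested.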

How the results depend on the processing

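No paired analysis was possible because each rat belongs to 1 group and the rat numbers are not shared between groups. Nothing reversed among the values that passed an unadjusted p under 0.05. Nlrp3 and Tnfrsf1a kept an adjusted p under 0.05 in MI versus Sham and in MI + UA versus Sham under every alternative run, and 0 of the 34 genes passed the test in MI + UA versus MI under any. The number of death genes called in MI versus Sham, 2, was 4 of the 31 still tested with edgeR's filterByExpr, or 12.9% against 8.15% of all genes called higher (Apaf1 with adjusted p = 0.0339 and Birc2 with 0.0363 were added), and 2 to 4 when 1 rat was left out (4 without Sham rat 12, or 11.8% against 4.65% of all genes, which added Casp12 and Gsdmd, and 4 without MI + UA rat 58, against 6.16%, which added Casp12 and Birc2). It was 3 with no filter beyond 1 count or with only the 2 groups in the fit (Casp12 added) and with rat 66 counted in MI (Apaf1 added). In MI + UA versus Sham it was 2, and 4 of 31 with filterByExpr, against 7.30% of all genes called higher, which added Casp1 (0.0480) and Apaf1 (0.0463), and 2 to 3 when 1 rat was left out. The number of all genes called in MI + UA versus MI, 0, was 3 with no filter beyond 1 count and 0 to 1 when 1 rat was left out (1 without MI rat 36). With filterByExpr 13391 genes were tested. The cause of the other differences was not tested. Over 19 alternatives the sign changed at least once for 7 of the 34 genes in MI versus Sham, 15 in MI + UA versus MI and 8 in MI + UA versus Sham. Depth limits the genes with few counts, such as Bik, Casp2, Diablo and Tnf, and 4 rats per group limit all 34 genes.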
